A study of Mus musculus with 16 samples.

Results

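The proteasome subunit genes described here are the mouse genes named Psma, Psmb, Psmc, Psmd or Psme followed by a number. Psmb8, Psmb9 and Psmb10, the inducible catalytic subunits of the immunoproteasome, were left out by the rule. A probe belonged to a gene when its accession matched that gene in a table of RefSeq genes, which gave 39 genes with 61 probes, of 22911 named genes and 56605 probes on the array. Of these, 38 genes with 59 probes passed the filter on dim signals, and all 59 probes were detected on all 16 arrays. The probe of Psmb11, the catalytic subunit of the thymus, was well above background on 1 array and was not kept. Psme2, a subunit of the 11S activator, had no probe with a matching accession. Psma8, the alpha subunit of the testis, kept 1 of its 2 probes, and the other was well above background on 3 arrays.

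RNA came from the cerebellar cortex of 16 mice of the strain B6;129S4-Atmtm1Bal/J, 4 in each of 4 groups. WT veh and WT NR mice were wild-type littermates, and Atm-/- veh and Atm-/- NR mice were homozygous for the Atm mutation. NR groups drank nicotinamide riboside, a precursor of NAD+, at 3.5 mg/ml (12 mM) from 6 weeks of age for 2 months, veh groups drank water, and all mice were labelled male and 3.5 months old. Each mouse had 1 array of 1 colour (Cy3), and no source used here says whether the arrays of a group shared a cage or an extraction, so that p-values measure the spread between these arrays.

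The proteasome degrades proteins tagged with ubiquitin. Its core is a barrel of stacked rings, with outer rings of alpha subunits that gate the entrance and inner rings of beta subunits that carry the peptidase sites. A regulatory particle caps the core. Its base holds a ring of ATPases that unfold the substrate, and its non-ATPase subunits bind ubiquitin, remove it and hold the particle together. Dedicated chaperones assemble the base, and other activators can take the place of the regulatory particle. In neurons, this system supplies much of the turnover of short-lived and damaged proteins. By these roles, the 38 genes fell into 8 of the alpha ring, 7 of the beta ring, 6 base ATPases, 11 non-ATPases, 3 chaperones and 3 activators. The core had 15 genes and the regulatory particle had 17.

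Several arrays stood apart before any group was compared. Although all mice were labelled male, 4 arrays gave signal for Xist but none for Y-linked genes. They were replicates 1 and 4 of WT NR, replicate 3 of Atm-/- veh and replicate 4 of Atm-/- NR. The choroid plexus gene Ttr read 18.05 on the log2 scale on WT veh 4 and 7.13 to 12.62 in the other 3 groups, and that array was also the highest for the forebrain gene Tbr1 (12.24). In bulk tissue, fewer cells of a type and less RNA per cell cannot be told apart. Genotype went with the slide, so that both cannot be told apart. On both slides veh arrays lay in row 1 and NR arrays in row 2, so that NR and row cannot be told apart either. The targeted gene Atm had a pair of probes, of which the dimmer one read 7.72 to 8.08 in Atm-/- arrays and 8.52 to 9.03 in WT arrays, while the brighter one overlapped. Where these probes lie in relation to the mutation is not given in the sources used here.

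Nfe2l1 and Nfe2l2, transcription factors known to drive proteasome genes, bind antioxidant response elements, whose core was searched as TGACNNNGC on both strands, 250 bases before to 50 after each start, in RefSeq promoters of build GRCm38.p6. Of the 39 genes with a probe, 32 had a promoter there. The letters were in 6 of 36 proteasome promoters (16.7%), those of Psmb5, Psmb6, Psmc6, Psmd9, Psmd12 and Psme4, against 12.4% of 32851 promoters. The letters CCAAT, searched the same way, were in 13 of 36 (36.1%) against 37.4%. The 60 bases before the start are shown for a pair of catalytic subunits that hold the core, in capitals, and for 2 genes without it that passed the NR comparison whichever array was left out. They lie at chr14:54617996-54618055 on the minus strand (Psmb5), chr11:70525297-70525356 on the plus strand (Psmb6), chr3:108256866-108256925 on the plus strand (Psma5) and chr14:14120946-14121005 on the minus strand (Psmd6).
Psmb5: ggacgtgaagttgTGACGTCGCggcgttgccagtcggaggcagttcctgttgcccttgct
Psmb6: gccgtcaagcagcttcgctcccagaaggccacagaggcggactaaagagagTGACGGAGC
Psma5: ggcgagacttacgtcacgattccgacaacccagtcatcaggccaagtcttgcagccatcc
Psmd6: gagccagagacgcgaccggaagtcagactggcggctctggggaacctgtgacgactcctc

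The comparison of Atm-/- NR with Atm-/- veh, which also set row 2 of the slide against row 1, asked what NR did in the mutant cerebellum. It was where proteasome genes changed. By limma with Benjamini-Hochberg adjustment over all kept probes, 9 of 38 genes (23.7%) passed an adjusted p of 0.05, against 11.5% of the 16737 named genes. Psma5, Psma6, Psma7, Psmc2, Psmd1, Psmd6 and Psmd10 rose, and Psmb7 and Psmc5 fell. Among all named genes, 6.67% rose and 4.8% fell. At an unadjusted p under 0.05 there were 16 proteasome genes (42.1%, against 30.5%), and in 20 genes (52.6%, against 26.3%) the arrays of both groups did not overlap, 11 of them higher and 9 lower with NR. The median change over the 38 genes was 0.10 on the log2 scale, against 0.04 over all named genes. The called changes ran from 0.758-fold to 1.39-fold.

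**Figure D1:**
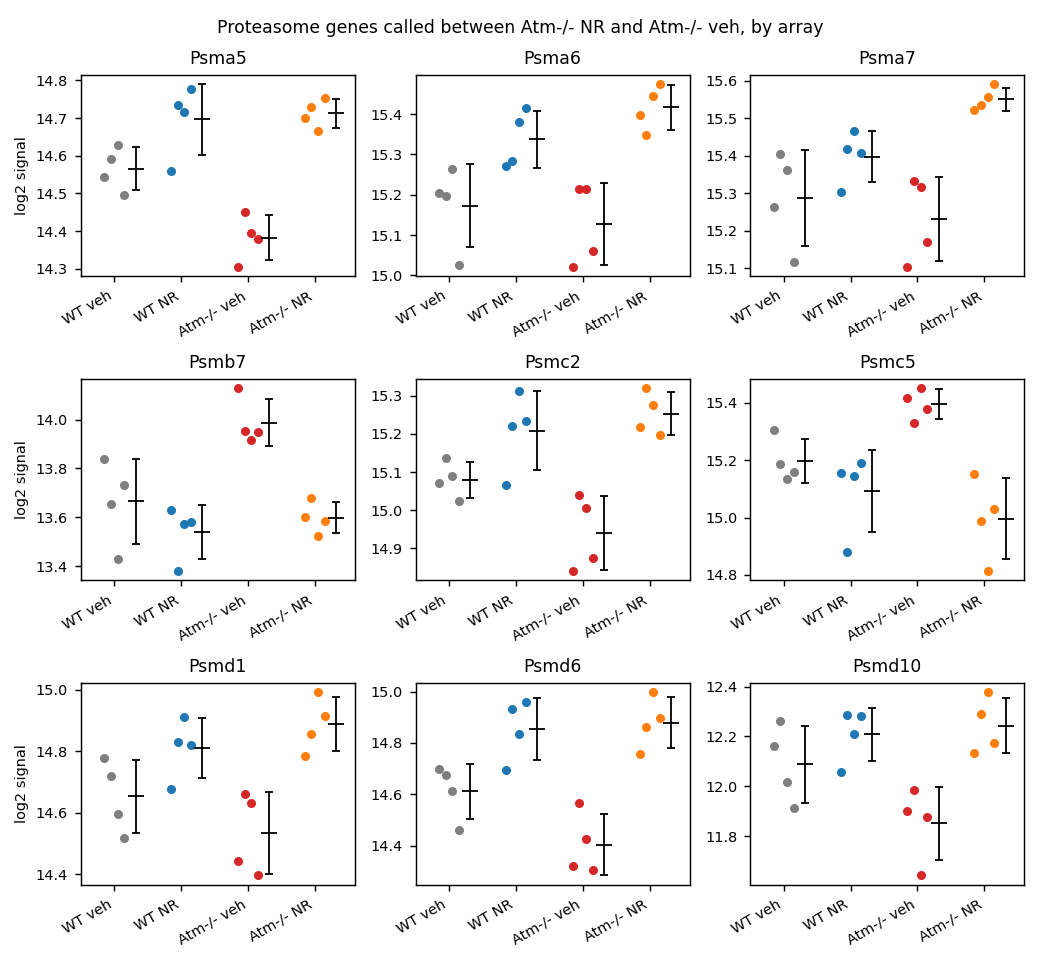
Log2 signal of the 9 called proteasome genes on each array (points, 4 per group), with mean and SD (bars), each panel with its own scale. In all 9 panels the Atm-/- veh and Atm-/- NR arrays do not overlap.

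All 8 genes of the alpha ring were above 0 in this comparison, with changes from 0.09 to 0.33 on the log2 scale and a median of 0.23, and 3 of them passed the adjusted test. Psma5, Psma6 and Psma7 encode subunits of the ring that closes the entrance of the core. Psma5 read 14.30, 14.45, 14.40 and 14.38 on the Atm-/- veh arrays and 14.70, 14.73, 14.67 and 14.75 on the Atm-/- NR arrays. The lowest NR array was above the highest veh array, and the rise was 1.26-fold (log2 0.33 ± 0.06 SE, n = 4 per group, limma adjusted p = 0.0127). Psma7 read 15.10, 15.33, 15.32 and 15.17 against 15.52, 15.53, 15.56 and 15.59 with NR. The 4 NR arrays of Psma7 lay close together and above every other array of the study, a rise of 1.25-fold over Atm-/- veh (log2 0.32 ± 0.08, limma adjusted p = 0.0248). Psma6 read 15.02, 15.21, 15.22 and 15.06 against 15.40, 15.35, 15.44 and 15.48. The groups again did not overlap, with a rise of 1.22-fold (log2 0.29 ± 0.07, limma adjusted p = 0.0298). Psma1, Psma2, Psma3, Psma4 and Psma8 changed by 0.09, 0.27, 0.17, 0.20 and 0.16 and did not pass. Psma8 was dim, from 6.26 to 7.18 in Atm-/- veh. The dimmer probes of Psma3, Psma4 and Psma6 changed by 0.06 to 0.11, less than their brightest probes. Averaged over the ring, an array's deviation from the genes' means over 16 arrays ran from -0.25 to -0.01 in Atm-/- veh and from 0.02 to 0.13 in Atm-/- NR.

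The beta ring did not move with the alpha ring. Its 7 genes ranged from -0.39 to 0.14, and 1 passed the adjusted test, downwards. The median was -0.04 with 3 genes above 0, but 0.04 with 4 above 0 when each array was scaled to its 75th percentile. Psmb7 encodes the subunit with trypsin-like activity. It read 14.13, 13.95, 13.92 and 13.95 in Atm-/- veh and 13.60, 13.68, 13.52 and 13.58 in Atm-/- NR. Every NR array was below every veh array, at 0.763 of the veh level (log2 -0.39 ± 0.09, limma adjusted p = 0.0212). Psmb5, the chymotrypsin-like subunit, read 14.34, 14.27, 14.21 and 14.32 against 14.08, 14.09, 14.07 and 14.13. Its groups did not overlap either, but the difference (log2 -0.19 ± 0.06, limma adjusted p = 0.0667) missed the threshold. Psmb6, the caspase-like subunit, read 16.03, 16.17, 16.12 and 15.91 against 15.995, 16.13, 16.11 and 16.22, with overlapping groups and a 95% interval of the difference from -0.13 to 0.25 (limma adjusted p = 0.713). Averaged over the ring, Atm-/- veh arrays lay from 0.03 to 0.08 above the genes' means and Atm-/- NR arrays from -0.04 to 0.03, which did not overlap by a narrow margin.

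**Figure D2:**
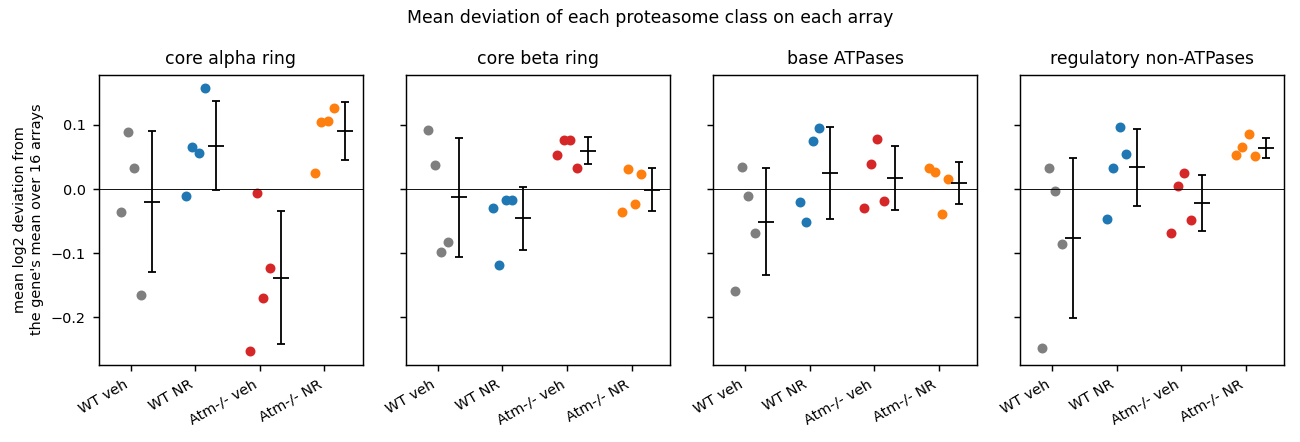
Deviation of each class on each array (points, 4 per group), as the log2 signal of a gene less its average on the 16 arrays, averaged within the class, with group mean and SD (bars). The alpha ring lies below 0 on all Atm-/- veh arrays and above 0 on all Atm-/- NR arrays, while the beta ring lies above 0 on all Atm-/- veh arrays.

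In the base, the ATPases split. Psmc2, a subunit of the unfolding ring, read 14.84, 15.04, 15.01 and 14.88 in Atm-/- veh and 15.22, 15.32, 15.28 and 15.20 in Atm-/- NR. It was higher on every NR array and rose 1.24-fold (log2 0.31 ± 0.07, limma adjusted p = 0.0198). Psmc5, another subunit of the same ring, read 15.42, 15.33, 15.45 and 15.38 against 15.15, 14.99, 14.81 and 15.03. Here every NR array was lower, at 0.758 of the veh level (log2 -0.40 ± 0.09, limma adjusted p = 0.0174). Psmc1, Psmc3 and Psmc6 changed by 0.07, 0.12 and 0.12, and Psmc4 by -0.27. None of these genes passed, although the Psmc4 groups did not overlap. Psmc4 passed without WT veh 1, an array outside this comparison on which it read low (12.88), and with only the arrays compared.

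Among the non-ATPase subunits, 2 of 11 rose and none fell by the adjusted test on the brightest probe of each gene. Psmd6, a subunit of the lid, had the largest rise of the 38 genes. It read 14.32, 14.57, 14.42 and 14.30 in Atm-/- veh and 14.76, 14.86, 14.998 and 14.90 in Atm-/- NR. These values are of the brightest of its 3 probes, on which the groups did not overlap and the rise was 1.39-fold (log2 0.47 ± 0.09, limma adjusted p = 0.0106). The dimmer probes changed by -0.13 and -0.10, and the mean of the probes by 0.08 (limma adjusted p = 0.382). Psmd1, a scaffold of the base that docks ubiquitin receptors, read 14.44, 14.66, 14.63 and 14.40 against 14.78, 14.86, 14.99 and 14.92. On this brightest probe the groups did not overlap and the rise was 1.28-fold (log2 0.35 ± 0.09, limma adjusted p = 0.0258). The dimmer probes of Psmd1 changed by 0.23 and -0.56, the fall at a limma adjusted p of 0.0058. The mean of its probes changed by 0.01 (limma adjusted p = 0.967). The other 9 genes ranged from -0.24 for Psmd8, a lid subunit, to 0.34 for Psmd14, the deubiquitinase of the lid. In Psmd2, Psmd8 and Psmd11 every NR array was below every veh array, and in Psmd4 and Psmd14 every NR array was above, without passing the adjusted test. The dimmer probe of Psmd4 changed by -0.07 and that of Psmd14 by 0.22. Psmd14 read 13.18 on WT veh 1, outside this comparison, and 14.07 to 14.38 on the other WT veh arrays. It passed without WT veh 1 and with only the arrays compared. Of the 3 chaperones of the base, 1 passed. Psmd10, the chaperone also called gankyrin, read 11.90, 11.99, 11.64 and 11.87 against 12.13, 12.29, 12.38 and 12.17. It was higher on every NR array and rose 1.31-fold (log2 0.39 ± 0.10, limma adjusted p = 0.0280), while Psmd5 and Psmd9 changed by -0.15 and -0.12. No activator passed, and Psme1, a subunit of the 11S activator, changed by -0.30 (limma adjusted p = 0.253).

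Core against regulatory particle showed no clear divide. In this comparison the core had 3 genes that rose and 1 that fell of 15, and the regulatory particle 3 and 1 of 17. The median of the core was 0.14 and that of the regulatory particle 0.07, a difference of 0.06. In the other comparisons between groups, the median of the core minus that of the regulatory particle was -0.07 for Atm-/- veh against WT veh, -0.06 for WT NR against WT veh and 0.03 for Atm-/- NR against WT NR. With the mean of a gene's probes these were -0.02, 0.02 and 0.0017, so that the value for WT NR turned sign, as it did without WT veh 1 (0.02). The classes differed more within the core, where the alpha ring had a median of 0.23 and the beta ring of -0.04 (0.31 and 0.04 with 75th percentile scaling), than between both particles. These medians are descriptions and carry no test.

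**Figure D3:**
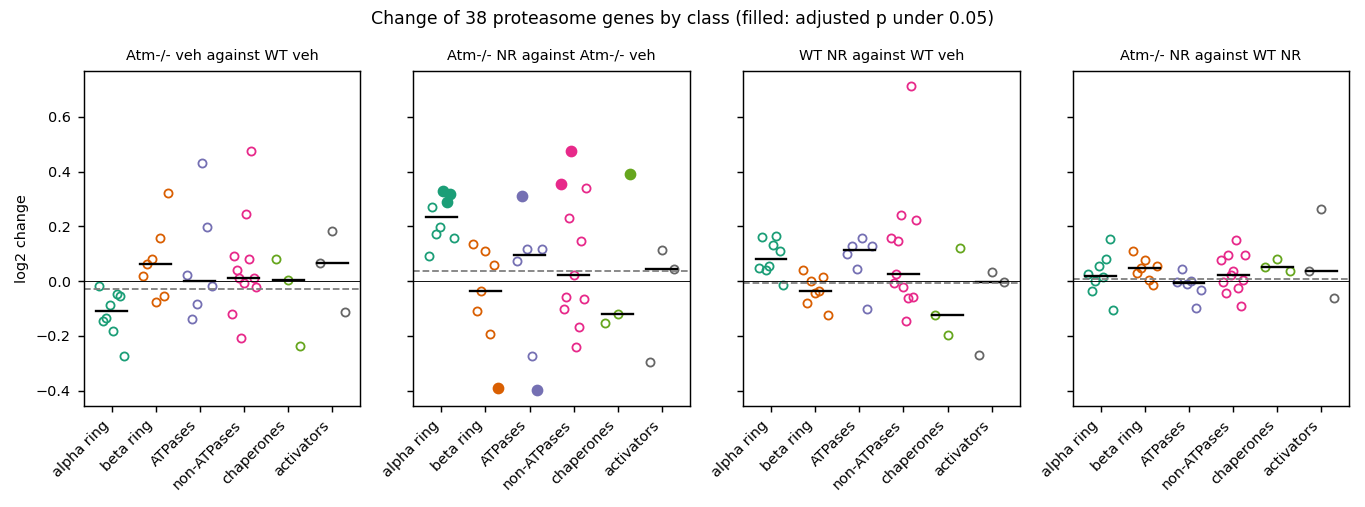
Log2 change of the 38 proteasome genes (points) by class in the 4 comparisons between groups, with the median of each class (black line) and of all named genes (dashed line), and filled points for an adjusted p under 0.05. Filled points occur only for Atm-/- NR against Atm-/- veh, where all 8 alpha ring genes lie above 0.

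Of the 9 called genes, Psma5 and Psmd6 passed whichever array was left out. Without Atm-/- veh 1 or without Atm-/- NR 3 only these 2 of the 9 passed, and over all 16 arrays left out in turn the count ran from 2 to 11. The share of all named genes moved too, with 2.97% without Atm-/- veh 1 and 3.17% without Atm-/- NR 3. With only the arrays that had Y-gene signal (all 4 of WT veh, 2 of WT NR and 3 each of the Atm-/- groups), 0 of 38 genes passed by limma, against 1.15% of all named genes, and the 9 genes kept their direction with adjusted p from 0.061 to 0.107. The changes there were 0.48 for Psmd6, 0.32 for Psma5, -0.41 for Psmb7 and -0.39 for Psmc5, and 7 of 8 alpha ring genes were above 0. Without WT veh 4, the array high in choroid plexus genes, 11 genes passed, and 15% of all named genes did. Other values moved with this comparison. Each Atm-/- NR array had fewer probes well above background (34945 to 37817) than each Atm-/- veh array (39134 to 41905, two-sided exact permutation test p = 0.0286, the smallest that 4 against 4 arrays can give). Of the 31 kept markers of cerebellar and other cell types, 1 passed, against 11.5% of all named genes. It was Car8, a Purkinje cell gene (log2 1.10 ± 0.31, limma adjusted p = 0.0417). The summed log2 signal of the 4 Purkinje genes was 65.7 to 67.6 in Atm-/- veh and 67.7 to 68.3 in Atm-/- NR. The other Purkinje genes, Calb1 (-0.02), Pcp2 (-0.06) and Itpr1 (0.09), did not pass. In Gfap (-0.75), Aqp4 (0.52), Folr1 (0.93) and Flt1 (0.31) the Atm-/- groups did not overlap, without passing the adjusted test. Over all named genes, 26.3% did not overlap. The other markers of these cell types did not share a direction with them. Beside Gfap and Aqp4, Slc1a3 and Gdf10 changed by 0.08 and -0.14. Beside Folr1, Ttr and Kcnj13 changed by -0.36 and -0.58. Beside Flt1, Cldn5 and Pecam1 changed by -0.23 and -0.51. Among the choroid plexus genes the ranges of the sums overlapped (23.1 to 27.3 and 24.7 to 25.2). The part of these, and of the row of the slide, in the result was not tested.

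Which probe stood for a gene mattered. There were 16 genes with several kept probes, and in 13 of them (81.2%) the brightest probe changed by more, in the upward direction, than the mean of the dimmer ones, against 56.9% of 5983 named genes with several probes. Counted as probes, 10 of 59 (16.9%) passed for Atm-/- NR against Atm-/- veh, 7 higher and 3 lower, against 9.04% of all kept probes. Of the 38 genes, 33 had their brightest probe among the 9313 brightest of the 37253 kept probes, of which 8.91% rose and 6.63% fell. Psmd1 gave opposite calls: its dimmest probe read 12.89, 12.63, 12.79 and 12.84 in Atm-/- veh and 12.32, 12.30, 12.21 and 12.05 in Atm-/- NR. That probe fell by 0.56 on the log2 scale (limma adjusted p = 0.0058), while the other pair of Psmd1 probes changed by 0.35 and 0.23. The files do not place these probes within their transcripts. With the mean of all kept probes of a gene, 6 genes passed (Psma5, Psma7, Psmb7, Psmc2, Psmc5 and Psmd10), and Psmd6 (0.08), Psmd1 (0.01) and Psma6 (0.20) did not. Each of these 6 genes has 1 kept probe.

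**Figure D4:**
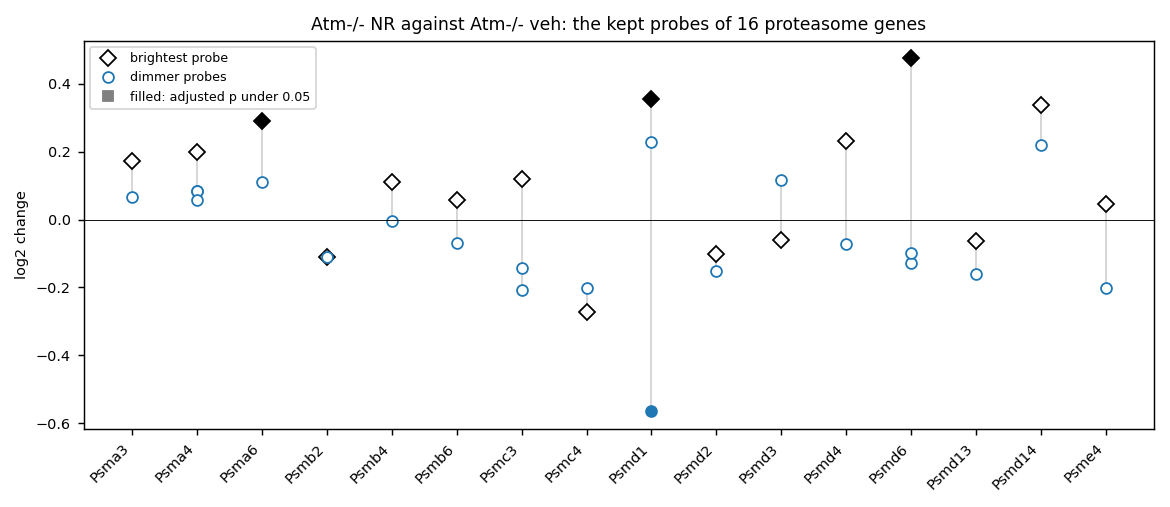
Log2 change between Atm-/- NR and Atm-/- veh for each kept probe of the 16 proteasome genes with several kept probes, with the brightest probe as a diamond, dimmer probes as circles and filled symbols for an adjusted p under 0.05. The probes of Psmd1 run from 0.35 to -0.56, and the dimmer probes of Psmd6 lie below 0.

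The comparison of Atm-/- veh with WT veh asked what the loss of Atm did without NR, and no proteasome gene passed the adjusted test by limma (0.0538% of named genes did). At an unadjusted p under 0.05 there were 8 of 38 (21.1%, against 16.8%), and in 6 genes (15.8%, against 8.74%) the groups did not overlap. In Psmb5, Psmb7, Psmc4, Psmc5 and Psmd8 every Atm-/- array was higher, and in Psma5 every Atm-/- array was lower. All 8 alpha ring genes were below 0 (7 with normexp, 6 with the mean of all probes), with a median of -0.11, and 5 of 7 beta ring genes were above 0, with a median of 0.06. The median over the 38 genes was -0.0015, against -0.03 over all named genes. Psmd12 and Psmc4 had the largest differences upwards, and Psma8 and Psmd10 the largest downwards. Psmd12, a lid subunit, read 12.23, 14.45, 14.60 and 14.44 in WT veh, so that 1 array set the group's mean, and 14.31, 14.36, 14.55 and 14.41 in Atm-/- veh. Its difference was 0.48 ± 0.38 (limma adjusted p = 0.587), and -0.09 without WT veh 1. Psmc4 showed the same low array, with 12.88, 13.99, 13.87 and 13.83 in WT veh against 14.09, 14.02, 14.07 and 14.14, a difference of 0.43 ± 0.18 (limma adjusted p = 0.295) that was 0.18 without WT veh 1. Probes of Psmd6 went opposite ways here, with -0.21 for the brightest and 0.17 for the dimmest, both at an unadjusted p under 0.05. Psmd10 changed by -0.24 ± 0.10 (limma adjusted p = 0.301) and Psma8 by -0.28 ± 0.20 (limma adjusted p = 0.546). These 2 comparisons share the Atm-/- veh arrays: Psmb7 differed by 0.32 from WT veh and by -0.39 with NR, and Psma5 by -0.18 and 0.33, so an array of Atm-/- veh that read high or low enters both values with opposite signs.

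In wild-type mice, WT NR against WT veh, no proteasome gene passed by limma, and 0% of named genes did. WT NR 1 and WT NR 4 had no Y-gene signal, while every WT veh array had it. At an unadjusted p under 0.05 there were 2 of 38 (5.26%, against 8.84%), Psma6 (0.16) and Psmd6 (0.24), and the groups did not overlap in 3 (7.89%, against 4.58%), Psma6, Psmc1 and Psmd4, all higher with NR. Psmd6 read 14.70, 14.67, 14.61 and 14.46 in WT veh and 14.69, 14.93, 14.84 and 14.96 in WT NR, a difference of 0.24 ± 0.09 (limma adjusted p = 0.571). WT NR 1 lay among the veh arrays. Psmd12 had the largest difference, 0.71 ± 0.38 (limma adjusted p = 0.716), and 0.15 without WT veh 1, the array on which it was low. The largest falls were Psme1 (-0.27 ± 0.16, limma adjusted p = 0.748) and Psmd9, a base chaperone (-0.20 ± 0.09, limma adjusted p = 0.668).

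The NR differences of both genotypes rest on separate arrays, and for 32 of 38 proteasome genes (84.2%) they had the same sign, 20 higher and 12 lower, against 71.3% of named genes. In both genotypes NR also went with the row of the slide, whose part was not tested. The change was larger in size in Atm-/- mice for 34 of the 38 (89.5%), against 71.2% of named genes. The difference between the NR effects was tested in the same model, and no proteasome gene passed by limma (0% of named genes), with 2 (5.26%) at an unadjusted p under 0.05, against 5.96%. These were Psmc5 (-0.30 ± 0.12, limma adjusted p = 0.839) and Psma5 (0.20 ± 0.09, 0.839). The median of this difference was 0.05 over the 38 genes and 0.03 over all named genes.

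**Figure D5:**
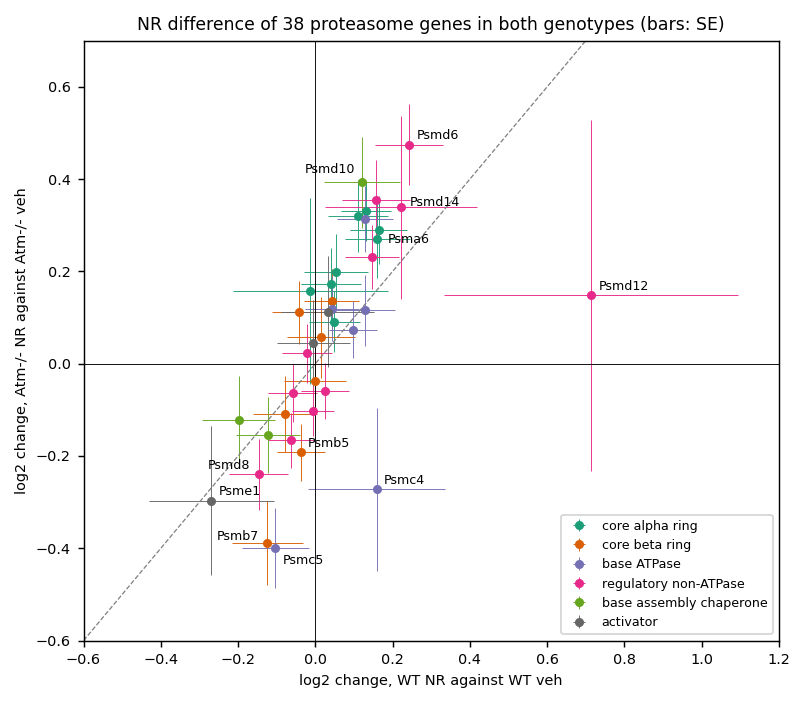
Log2 change with NR of the 38 proteasome genes in WT mice (x axis) and in Atm-/- mice (y axis), coloured by class, with SE as bars and the line of equal change dashed. Of the 38 genes, 32 lie in the quadrants where both changes have the same sign, and Psmd12 and Psmc4, whose WT veh group holds 1 low array, lie to the right of the line.

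The comparison of Atm-/- NR with WT NR asked what genotype did under NR. No proteasome gene passed by limma (0.0597% of named genes did), 1 (2.63%) had an unadjusted p under 0.05, against 4.34%, and in 2 genes (5.26%, against 4.53%) the groups did not overlap, Psma7 and Psmd8, both higher in Atm-/- NR. The largest differences upwards were Psme3, a subunit of the nuclear PA28 gamma activator (0.26 ± 0.12, limma adjusted p = 0.947), and Psma7 (0.15 ± 0.08, limma adjusted p = 0.971). Those downwards were Psma8 (-0.10 ± 0.20) and Psmc5 (-0.10 ± 0.09). The median was 0.03, against 0.01 over all named genes. The genotype difference had the same sign with and without NR in 20 of 38 genes (52.6%), against 56.6% of named genes.

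Among other genes of the pathway, 37 were listed, 36 had a probe and 35 were kept. In Atm-/- NR against Atm-/- veh, 4 rose and 3 fell, against 6.67% and 4.8% of named genes, and none passed in the other comparisons between groups, where 0 of 35 were called. Of the 5 genes for assembly of the core, 3 rose. These were Psmg1 (0.34 ± 0.08, limma adjusted p = 0.0192), Psmg2 (0.41 ± 0.09, 0.0176) and Psmg3 (0.25 ± 0.07, 0.0328), chaperones of the alpha ring, and Psmg4 and Pomp changed by 0.16 and 0.16. Psmg2 ran from 12.42 to 12.63 in Atm-/- veh and from 12.91 to 13.02 in Atm-/- NR, with no overlap. Rad23b, which carries ubiquitinated proteins to the proteasome, also rose (0.39 ± 0.09, limma adjusted p = 0.0201). Of the genes that fell, Adrm1, a ubiquitin receptor of the base, changed by -0.32 ± 0.07 (limma adjusted p = 0.0193) and Uba1, the main ubiquitin-activating enzyme, by -0.23 ± 0.06 (0.0331). None of the immunoproteasome genes passed, with -0.41 for Psmb8, -0.10 for Psmb9 and 0.17 for Psmb10. The transcription factors Nfe2l1 and Nfe2l2 changed by 0.09 and 0.28 (limma adjusted p = 0.438 and 0.125).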

How the data were processed

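RNA from 16 mouse cerebella was hybridised to Agilent arrays of 1 colour. The authors deposited, per array, Feature Extraction intensity values with background already subtracted, and a score table of log z-scores, used as an alternative. Spots that were no controls were kept where at least 0.5 of a probe's spots were well above background on all 4 arrays of a group. Log2 intensity was quantile normalized, outlier spots were set aside, spots were averaged, and limma 3.58.1 in R 4.3.3 was fitted to the 4 groups (12 residual degrees of freedom), with Benjamini-Hochberg adjustment over 37253 probes and a threshold of 0.05. The brightest kept probe stood for a gene. Names came from RefSeq accessions (32994 of 56605 probes), and the arrays were designed on another build than GRCm38.p6, so no probe coordinates are given, and those of promoter windows are RefSeq's. Intervals used 12 degrees of freedom. The number of arrays limits the precision. The members and gene lists were chosen with earlier results of these data known. Genes named in full were those called, the largest 2 upwards and downwards per comparison, and the catalytic subunits. Scripts were tested on simulated data. Alternatives changed the scaling, background correction, filter, probe summary, arrays and test. The study's own rule set a z-ratio of 1.5, a z-test p of 0.05 and a false discovery rate of 0.3. The values of 1 listed pathway gene are not reported here.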

Additional observations from a re-analysis of the deposited data

Results flagged for a closer look

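Of 76 groups of 4 arrays tested over 19 genes, 7 held an array whose gap to its nearest neighbour, as a share of the group's range, passed Dixon's critical value, which chance alone does in about 1 of 20 groups. These genes included those picked for large changes in the same data, so that this rate need not hold for them. Psmd12 (share 0.9333, 12.23 against 14.44) and Psmc4 (0.8524, 12.88 against 13.83) were low on the same array, WT veh 1. WT NR 2 was low for Psmb5 (0.97, 14.00 against 14.12) and Psmc5 (0.8545, 14.88 against 15.14). Psmb7 was high on Atm-/- veh 1 (0.8418, 14.13 against 13.95), Psmd9 was high on Atm-/- veh 3 (0.8845, 10.52 against 10.36) and Psma8 was low on Atm-/- NR 1 (0.87, 6.54 against 6.93).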

How the results depend on the processing

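The 9 called genes kept their direction under every alternative. With the mean of a gene's probes, Psmd6 changed by 0.083 and Psmd1 by 0.0059, the latter near 0. The number called for Atm-/- NR against Atm-/- veh was 11 with 75th percentile scaling (13.5% of all named genes) and with normexp (12.7%), 10 with the deposited z-scores (12%), 9 with no filter on dim probes (9.58%), 11 with only probes detected on all arrays (14.5%), 8 with only the arrays compared (9.07%), 6 with the mean of a gene's probes (6.82%) and 0 with only the arrays that had Y-gene signal (1.15%). The methods' t-test called 8, 23, 4 and 4 genes in the 4 comparisons between groups before adjustment (2259, 5641, 1252 and 1177 of all 16737 named genes) and 15 (2091) for Atm-/- NR against Atm-/- veh after Benjamini-Hochberg, and the study's z rule called 0 (389). With each array left out in turn, the count ran from 2 to 11 (2 without Atm-/- veh 1, 3 without Atm-/- veh 4, 4 without Atm-/- NR 2, 2 without Atm-/- NR 3, 6 without Atm-/- NR 4, where 2.97%, 4.6%, 5.31%, 3.17% and 6.51% of all named genes passed), the median change from 0.0573 to 0.109, the core minus regulatory median for WT NR against WT veh from -0.0909 to 0.0185, and Psmd12 for Atm-/- veh against WT veh from -0.092 (without WT veh 1) to 0.70. With the mean of a gene's probes the median was 0.0417, the core minus regulatory median for WT NR 0.0219, and Psmb6 turned to -0.0059. The cause of these shifts was not tested.

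Replicate numbers did not pair the samples: of 24 pairs with the same number, 6 had a correlation over 0.1 (range -0.33 to 0.37). With the replicate block, 10 genes were called (10.7% of all named genes). The arrays give no read depth, and signal over background limits Psma8 and Psmb11.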
